A study of Mus musculus with 4 samples.

Results

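The genes described here are 10 enzymes of threonine, glycine and one-carbon metabolism, out of 55602 annotated genes, in RNA-seq data of wild-type (WT) and *Zfp57*-/- neural precursor cells (NPCs). They were selected by pathway because *Tdh* is among the strongest rises in the *Zfp57*-/- cells. The bulk difference between the genotypes was thus used in the choice, and for these 10 genes it is given as a description, without a p-value. ZFP57 is a KRAB zinc finger protein that keeps the DNA methylation of imprinting control regions. The cells were JB1, a male hybrid embryonic stem cell (ESC) line whose mother was JF1 and whose father was C57BL/6 (B6), and a single *Zfp57*-/- line derived from JB1, so that genotype and line cannot be told apart. Both were differentiated in defined medium for 12 days, with 1 µM cyclopamine, an inhibitor of hedgehog signalling, from day 2 to day 10. There were 2 WT and 2 *Zfp57*-/- libraries of ribosome-depleted total RNA, with between 7663520 and 10337082 fragments counted on genes. The fragments assigned to an allele came to 36.1% to 37.0% of these. The study calls the replicates biological, and nothing says that they came from separately derived lines. The p-values thus measure the spread between these libraries.

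As background, threonine dehydrogenase (TDH) and glycine C-acetyltransferase (GCAT) break threonine down to glycine and acetyl-CoA in the mitochondria, and mouse ESCs are known for abundant TDH and for a need for threonine. The glycine cleavage system, made of GLDC, AMT, GCSH and the shared subunit DLD, passes a carbon of glycine on to tetrahydrofolate. The serine hydroxymethyltransferases, SHMT1 in the cytosol and SHMT2 in mitochondria, interconvert serine and glycine and load the same carrier. MTHFD2 and MTHFD1L turn the mitochondrial folate-bound unit into formate, which the cytosol uses for purines, thymidylate and methionine, and PHGDH starts the synthesis of serine from glucose.

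Promoter windows, from 250 bases before to 50 bases after the transcription start, were taken from RefSeq (GRCm38.p6) and were found for 9 of the 10 genes, *Tdh* being the other. Shown here are those of *Gcat*, which acts after *Tdh*, of the 3 genes specific to the glycine cleavage system and of *Shmt1*, read 5′ to 3′ on the strand of the gene, with matches to the motifs searched in capitals. They lie at chr15:79030624-79030923 (+) for *Gcat*, chr19:30175392-30175691 (-) for *Gldc*, chr9:108296655-108296954 (+) for *Amt*, chr8:116993449-116993748 (-) for *Gcsh* and chr11:60811216-60811515 (-) for *Shmt1*.
Gcat: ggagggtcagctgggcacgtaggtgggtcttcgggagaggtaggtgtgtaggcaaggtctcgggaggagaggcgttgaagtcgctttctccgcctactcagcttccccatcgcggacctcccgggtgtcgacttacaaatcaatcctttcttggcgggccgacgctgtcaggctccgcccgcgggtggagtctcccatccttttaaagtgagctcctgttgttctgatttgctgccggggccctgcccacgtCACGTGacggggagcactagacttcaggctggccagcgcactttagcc
Gldc: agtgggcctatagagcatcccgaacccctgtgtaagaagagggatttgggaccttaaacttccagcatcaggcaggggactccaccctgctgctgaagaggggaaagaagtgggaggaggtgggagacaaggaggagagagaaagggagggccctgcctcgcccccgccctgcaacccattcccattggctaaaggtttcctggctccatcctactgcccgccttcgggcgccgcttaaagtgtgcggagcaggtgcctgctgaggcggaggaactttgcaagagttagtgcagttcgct
Amt: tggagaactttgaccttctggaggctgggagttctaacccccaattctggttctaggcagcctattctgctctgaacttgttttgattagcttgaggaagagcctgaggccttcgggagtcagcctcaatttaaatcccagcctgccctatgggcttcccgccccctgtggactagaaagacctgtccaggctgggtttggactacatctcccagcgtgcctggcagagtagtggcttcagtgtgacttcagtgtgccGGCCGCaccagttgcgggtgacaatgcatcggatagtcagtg
Gcsh: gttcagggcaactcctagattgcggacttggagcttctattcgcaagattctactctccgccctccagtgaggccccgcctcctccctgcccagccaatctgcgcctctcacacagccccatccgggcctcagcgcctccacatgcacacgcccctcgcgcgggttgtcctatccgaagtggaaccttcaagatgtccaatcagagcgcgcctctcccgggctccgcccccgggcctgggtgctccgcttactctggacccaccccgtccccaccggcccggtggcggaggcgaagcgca
Shmt1: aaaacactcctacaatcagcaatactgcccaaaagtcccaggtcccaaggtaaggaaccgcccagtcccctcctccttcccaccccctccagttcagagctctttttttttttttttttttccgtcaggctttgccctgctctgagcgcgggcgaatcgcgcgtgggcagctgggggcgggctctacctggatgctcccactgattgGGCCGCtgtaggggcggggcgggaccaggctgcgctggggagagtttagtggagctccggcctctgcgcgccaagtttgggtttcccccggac

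The motifs searched on both strands were TGCCGC and GGCCGC, the 2 forms of the hexamer bound by ZFP57 when methylated, TGATGNAA, the C/EBP-ATF element bound by ATF4 complexes, CACGTG, the E-box, and ATGCAAAT, the octamer bound by POU factors. The second form of the hexamer was added after the sequences were seen. The first form was in 11.6%, the second in 20% and either form in 26.8% of all 32851 RefSeq promoter windows. The C/EBP-ATF element was in 3.97%, the E-box in 7.15% and the octamer in 1.74% of them. Among the 9 windows of the enzymes, the second form of the hexamer was in 2, those of *Amt* (after its start) and *Shmt1* (before its start), and the first form in 0. The E-box was in that of *Gcat*, after its start, and the C/EBP-ATF element and the octamer were in 0. These matches do not overlap each other, and they are matches of letters, not shown sites. The GC content of the 9 windows ran from 42.7% for *Shmt2* to 66.3% for *Gcsh*, with a median of 52.7% over all windows.

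*Zfp57* itself had 392 and 249 counts in the WT and 158 and 144 in the *Zfp57*-/- libraries (log2 fold change -1.19, SE 0.32). According to the study, transcripts outside the deletion remain detectable in these cells, so that this level does not check the genotype. The WT libraries differed from each other more than the *Zfp57*-/- libraries did, and both pairs differed by more than sampling noise (chi-square per degree of freedom over genes 31.2 and 6.37). In WT replicate 2, *Gcat*, *Gcsh*, *Shmt1* and *Mthfd2* were at 1.96, 1.7, 1.97 and 1.87 times their level in replicate 1. The ratios of the other enzymes ran from 0.771 for *Tdh* to 1.4 for *Shmt2*. Between the *Zfp57*-/- libraries, replicate 2 over replicate 1, the ratios of the 10 enzymes ran from 0.739 for *Amt* to 1.16 for *Gldc*. These ratios were not compared with those of all genes. Values per library are CPM, counts divided by the library size in units of 1000000 and scaled by TMM. TMM is a trimmed mean of the log ratios between libraries. Fold changes come from edgeR. Each SE is the absolute log2 fold change divided by the square root of the F statistic of edgeR's quasi-likelihood test.

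In the *Zfp57*-/- cells, threonine dehydrogenase RNA went from nearly undetected to one of the more abundant messages. The RNAs of the proteins specific to the glycine cleavage system and of *Shmt1* were higher in the *Zfp57*-/- cells. For *Amt*, among the reads assigned to an allele, only those of B6 were higher. Those of *Gcat*, *Shmt2*, *Mthfd2*, *Mthfd1l* and *Phgdh* were not called at an adjusted p of 0.05, and the value of *Mthfd2* depended on the WT library. All 10 enzymes passed the filter on low counts, *Tdh* only through its counts in the *Zfp57*-/- libraries, as it had 3 and 3 in the WT. Both *Zfp57*-/- libraries lay above both WT libraries in 7 of them, as in 33.7% of all 19995 genes tested, and the groups overlapped in *Shmt2*, *Mthfd2* and *Phgdh*. None had both *Zfp57*-/- libraries below both WT libraries, which held for 32.6% of all genes. At an adjusted p of 0.05, 5 were higher (*Tdh*, *Gldc*, *Amt*, *Gcsh* and *Shmt1*; *Amt* not without either *Zfp57*-/- replicate) and 0 lower, while 27.6% of all genes passed, 13% higher and 14.6% lower. Their median log2 fold change was 0.76 over the 10 enzymes and -0.01 over all genes tested. As the choice rests on this comparison, these counts describe the list only.

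**Figure D1:**
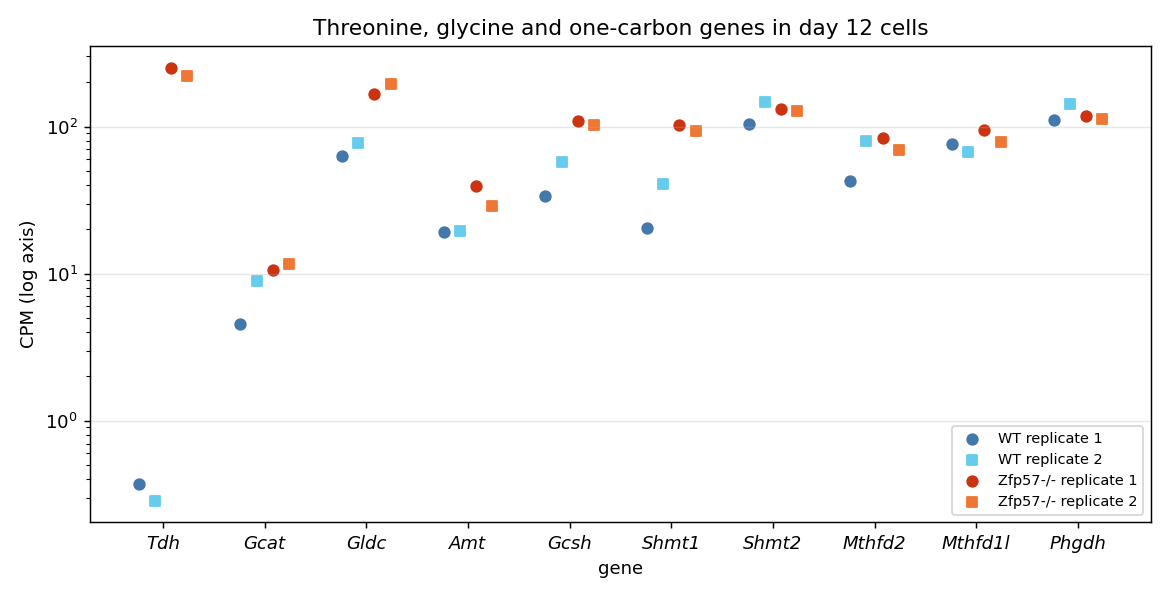
CPM of the 10 enzymes (x axis) in each library (log y axis); each point is 1 library, blue for WT and red or orange for *Zfp57*-/-. *Tdh* is at 0.37 and 0.29 in the WT and at 252 and 220.1 in the *Zfp57*-/- libraries, *Gldc*, *Gcsh* and *Shmt1* are separated by genotype, and the points of *Shmt2*, *Mthfd2* and *Phgdh* are mixed.

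*Tdh* (chr14:63492347-63509092, minus strand, GRCm38; all gene positions are from the annotation used for counting) had 3 and 3 counts in the WT and 2348 and 2153 in the *Zfp57*-/- libraries. The level was 0.33 ± 0.06 CPM in WT and 236 ± 22.6 CPM in *Zfp57*-/- cells (SD, n = 2). The *Zfp57*-/- mean was 635 times the level of the shallower WT library. That ratio rests on 3 WT counts, so that it is imprecise and not a lower bound. Per kilobase of exon, *Tdh* lay above 97.7% of the genes tested in *Zfp57*-/- cells and above 7.24% in WT cells. The 2 genotypes were thus far apart in every library. The fitted log2 fold change, which depends on how low counts are treated, was 9.45 (SE 0.33). This SE, derived from the F statistic, is likely too small for a gene with 3 and 3 WT counts. DESeq2 gave a log2 fold change of 9.50 with a standard error of 0.63. An annotated copy on chromosome 2, *Gm13929*, which is 97.07% identical to *Tdh* over 1125 bases, had 2 counts in all, and *Gm17232*, which overlaps 66 exonic bases of *Tdh* on the opposite strand, had 6.

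The genes with the nearest profile to *Tdh* over the 4 libraries, by Euclidean distance in log2(CPM + 1), were *Pou5f1* (distance 0.474), *Tdgf1* (0.48), *Dppa5a* (0.743), *Dnmt3l* (1.68) and *Esrrb* (1.91). *Pou5f1*, the pluripotency factor OCT4, had 1 and 6 counts in the WT and 2747 and 2286 in the *Zfp57*-/- libraries. *Tdgf1*, a NODAL co-receptor, had 0 and 2 counts in the WT and 2301 in each *Zfp57*-/- library. These points share the libraries, and the likeness is a description.

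**Figure D2:**
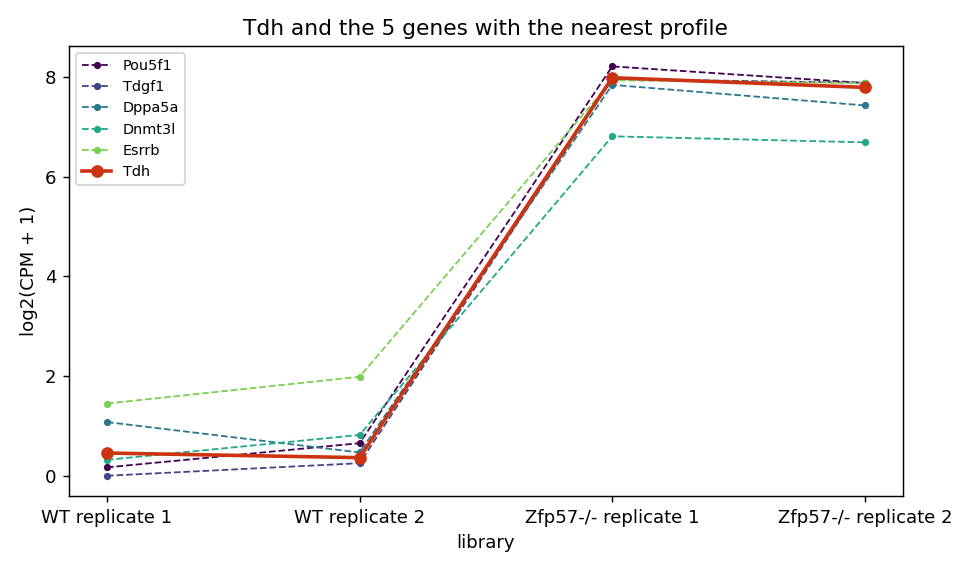
Level of *Tdh* (thick red line) and of its 5 nearest genes (dashed lines) in each library (x axis), as log2(CPM + 1) (y axis). All 6 genes lie at 2 or below in both WT libraries and above 6 in both *Zfp57*-/- libraries.

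The cells labelled as NPCs were checked against marker genes. Of 12 pluripotency markers, 10 rose in *Zfp57*-/- cells and 0 fell, or 83.3% called beside 27.6% of all genes, and their summed level was 170.4 to 261.6 CPM in the WT and 1562 to 1679 CPM in the *Zfp57*-/- libraries. *Nanog*, the pluripotency homeobox gene, had 0 counts in both WT libraries and 903 and 938 in the *Zfp57*-/- libraries. Of 10 radial glia markers 0 rose and 6 fell (60%), among them *Nes*, which encodes nestin (361.3 ± 7.32 against 192.6 ± 3.19 CPM), and *Pax6*, a neural progenitor factor (28.02 ± 0.48 against 3.42 ± 0.78 CPM). *Nes* did not pass without either *Zfp57*-/- replicate (log2 fold change -0.88 and -0.92). Of 10 neuron markers 0 rose and 7 fell (70%), such as *Tubb3*, the neuronal tubulin, at 428.1 ± 214.5 against 55.26 ± 4.58 CPM (log2 fold change -2.95, and -2.33 without WT replicate 2). Markers of other lineages gave 2 higher and 1 lower of 10 for endoderm (30%) and 2 higher and 1 lower of 8 for mesoderm and endothelium (37.5%), near the 27.6% of all genes, and 4 higher and 0 lower of 8 for cycling cells (50%). The endoderm factor *Gata4* was at 113.2 ± 65.2 and 179.4 ± 41.3 CPM and did not pass (log2 fold change 0.66), but it passed without WT replicate 2 (1.42), with a replicate block (0.77) and with no filter on low counts (0.66). The part of these markers in the levels of *Tdh* and of the other enzymes was not tested, and in bulk RNA a change in the number of cells of a type cannot be told apart from a change in RNA per cell.

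*Gcat* (chr15:79030874-79038353, plus strand), which encodes the enzyme after TDH, was expressed at a low level. It had 37 and 94 counts in the WT and 99 and 114 in the *Zfp57*-/- libraries, or 6.78 ± 3.11 and 11.14 ± 0.73 CPM (SD, n = 2). Both *Zfp57*-/- libraries were higher, but WT replicate 2 came close to them, and the log2 fold change was 0.70 (SE 0.37). It was 0.29 without WT replicate 1 and 1.28 without WT replicate 2. A second gene model of the same symbol and strand covers 1132 of the 2384 exonic bases and had 5 counts over the 4 libraries. Fragments in the shared exons fit both models and could not be given to one, so that the counts of *Gcat* are a lower bound of its fragments.

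Of the 3 proteins specific to the glycine cleavage system, all had more RNA in both *Zfp57*-/- libraries. *Gldc* (chr19:30098449-30175418, minus strand) encodes the decarboxylase that opens the reaction. It had 63.52 and 76.94 CPM in the WT and 167.6 and 193.7 CPM in the *Zfp57*-/- libraries, with a log2 fold change of 1.36 (SE 0.20). The 5 genes nearest to it in profile were *Degs1*, *Kdm2b*, *Eif4e2*, *Farsb* and *Dusp6*, at distances from 0.204 to 0.357. *Gcsh* (chr8:116981810-116993537, minus strand), the lipoyl-bearing shuttle protein, was at 33.81 and 57.56 CPM in the WT and at 109.3 and 103.2 CPM in the *Zfp57*-/- libraries (log2 fold change 1.21, SE 0.25). The WT libraries of *Gcsh* were far apart, yet both lay well below the *Zfp57*-/- ones. Its 4 annotated copies, 90.36% to 91.4% identical over parts of the transcript, had 2 counts in all. *Amt* (chr9:108296853-108302302, plus strand), the aminomethyltransferase, was at 19.32 and 19.38 CPM in the WT and at 39.29 and 29.03 CPM in the *Zfp57*-/- libraries. Its log2 fold change was 0.82 (SE 0.23), and it was 0.59 without *Zfp57*-/- replicate 1 and 1.03 without *Zfp57*-/- replicate 2. *Dld*, the subunit shared with other mitochondrial complexes, was at 96.09 and 112.3 CPM in the WT and 97.68 and 100.8 CPM in the *Zfp57*-/- libraries (log2 fold change -0.07, SE 0.19, edgeR adjusted p = 0.813), and became 0.044 without WT replicate 2.

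The serine hydroxymethyltransferases gave unlike values. *Shmt1* (chr11:60788104-60811718, minus strand), the cytosolic enzyme, had 166 and 424 counts in the WT and 952 and 911 in the *Zfp57*-/- libraries, or 30.52 ± 14.1 and 97.65 ± 6.41 CPM (SD, n = 2). The libraries of the genotypes did not overlap, and the log2 fold change was 1.67 (SE 0.29). *Smcr8*, which overlaps 184 of its 3883 exonic bases on the opposite strand, was counted separately by strand. *Shmt2* (chr10:127517123-127522444, minus strand), the mitochondrial enzyme, had 847 and 1539 counts in the WT and 1236 and 1247 in the *Zfp57*-/- libraries. The 2 WT libraries enclosed the *Zfp57*-/- ones, at 104.9 and 146.9 against 132.7 and 127.5 CPM, with a log2 fold change of 0.05 (SE 0.21). It was -0.20 without WT replicate 1, and with *Actb* scaling it was -0.56, where the median gene was at -0.68 and *Shmt2* 0.12 above it.

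Of the enzymes that follow in the mitochondria, *Mthfd2* differed between the genotypes by less than its WT libraries did from each other. *Mthfd1l* differed by more than its WT libraries did, but by less than its *Zfp57*-/- libraries did. *Mthfd2* (chr6:83305691-83325908, minus strand), the mitochondrial methylenetetrahydrofolate dehydrogenase, was at 42.97 and 80.38 CPM in the WT and at 83.19 and 69.3 CPM in the *Zfp57*-/- libraries. Its log2 fold change of 0.30 (SE 0.28) depended on the WT library, being -0.10 without replicate 1 and 0.82 without replicate 2. *Mthfd1l* (chr10:3973118-4167081, plus strand), the formate-releasing synthetase, was at 76.53 and 66.92 CPM in the WT and at 94.24 and 78.3 CPM in the *Zfp57*-/- libraries. The groups did not overlap, but the lower *Zfp57*-/- library lay close to the higher WT library, and the log2 fold change was 0.27 (SE 0.20). With the libraries scaled to *Actb*, *Mthfd2* and *Mthfd1l* were at -0.23 and -0.45, which is 0.45 and 0.23 above the median of all genes under that scaling.

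*Phgdh* (chr3:98313170-98339990, minus strand), the first enzyme of serine synthesis, had 902 and 1485 counts in the WT and 1109 and 1096 in the *Zfp57*-/- libraries. In CPM the values were 111.7 and 141.8 against 119 and 112, so that the groups overlapped, with a log2 fold change of -0.13 (SE 0.20). It was -0.32 without WT replicate 1 and 0.046 without WT replicate 2. Its nearest genes in profile were *Patz1*, *Itm2b*, *Arrdc3*, *Ldb1* and *Fam49b*, at distances from 0.114 to 0.163. *Phgdh* has 18 annotated transcript copies that are at least 90% identical over at least 200 bases, which together had 162 and 369 counts in the WT and 227 and 239 in the *Zfp57*-/- libraries. Most of these were on *Gm7901*, which is 98.75% identical over 1597 bases and had 134, 296, 177 and 192 counts. As the study counted unique alignments only, fragments that fit *Phgdh* and a copy equally well were not counted, and the level of *Phgdh* is uncertain to that extent. *Psat1*, which encodes the next enzyme of the serine pathway, was at 146.4 and 231.7 CPM in the WT and at 211.3 and 194.8 CPM in the *Zfp57*-/- libraries (log2 fold change 0.10, edgeR adjusted p = 0.782). It was -0.22 without WT replicate 1, -0.47 when scaled to *Actb* (0.21 relative to the median of all genes), and 0.47 and past the threshold without WT replicate 2.

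The order of the levels was compared per kilobase of exon (RPKM, with TMM-scaled library sizes). In WT cells *Phgdh* led with 50.98 ± 8.55 RPKM (SD, n = 2), followed by *Shmt2* (40.5 ± 9.56), *Gcsh* (28.93 ± 10.6), *Gldc* (18.71 ± 2.53), *Mthfd2* (17.69 ± 7.59) and *Mthfd1l* (16.17 ± 1.53). *Amt* (7.94 ± 0.02), *Shmt1* (7.86 ± 3.63), *Gcat* (2.84 ± 1.30) and *Tdh* (0.13 ± 0.02) came last. Neighbours within 1 SD of each other were *Gcsh* and *Gldc*, *Gldc* and *Mthfd2*, *Mthfd2* and *Mthfd1l*, and *Amt* and *Shmt1*. In *Zfp57*-/- cells *Tdh* led with 90.27 ± 8.64 RPKM, before *Gcsh* (67.29 ± 2.70), *Gldc* (48.12 ± 4.92), *Phgdh* (46.47 ± 1.99) and *Shmt2* (41.83 ± 1.18). Then came *Shmt1* (25.15 ± 1.65), *Mthfd2* (21.87 ± 2.82), *Mthfd1l* (19.45 ± 2.54), *Amt* (14.02 ± 2.98) and *Gcat* (4.67 ± 0.30), and *Gldc* and *Phgdh*, and *Mthfd2* and *Mthfd1l*, were within 1 SD of each other.

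*Actb*, by which the study scaled its marker measurements, had 14634 and 37665 counts in the WT and 35070 and 39257 in the *Zfp57*-/- libraries. When the libraries were scaled to it, the median log2 fold change of all genes moved to -0.68, and 1 of the 10 enzymes, *Tdh*, passed the threshold. Relative to that median, the log2 fold changes of the other enzymes lay between -0.08 for *Phgdh* and 1.84 for *Shmt1*.

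The rest of the pathway was described from 5 lists with 64 tested genes that are not among the 10 enzymes. Of these genes, 16 rose and 8 fell in *Zfp57*-/- cells, or 37.5%, beside 27.6% of all genes. The lists were chosen with earlier results of these data known, so that their counts and the p-values of their genes are a description. Among 15 other enzymes of folate metabolism, 5 rose, 2 fell and 8 did not pass, with a median log2 fold change of 0.08. *Atic*, which closes the purine ring, rose from 75.78 ± 21.9 to 317.8 ± 19.95 CPM (SD, n = 2; log2 fold change 2.07, SE 0.24, edgeR adjusted p = 0.000194). *Mthfd1*, the cytosolic trifunctional enzyme, rose with a log2 fold change of 1.37 (adjusted p = 0.00101), and *Fpgs*, which adds the glutamate tail of folates, with 1.28 (adjusted p = 0.0042). *Mthfd2l*, an isozyme of *Mthfd2*, had 258 and 262 counts in the WT and 114 and 90 in the *Zfp57*-/- libraries (log2 fold change -1.41, adjusted p = 0.00348), and did not pass without *Zfp57*-/- replicate 2 (-1.21). *Aldh1l2*, the mitochondrial formyltetrahydrofolate dehydrogenase, fell (log2 fold change -1.64, adjusted p = 0.00562). The genes that fell include mitochondrial folate enzymes, and those that rose include cytosolic ones, but no test compared the compartments. Among the 10 enzymes, no mitochondrial one was called lower. *Gldc*, *Gcsh* and *Amt* were higher (log2 fold changes 1.36, 1.21 and 0.82), and *Shmt2*, *Mthfd2* and *Mthfd1l* were not called.

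Of 5 folate carriers and receptors, 1 rose, the folate receptor gene *Folr1*, from 47 and 39 to 181 and 160 counts (log2 fold change 1.92, SE 0.32, edgeR adjusted p = 0.00201). Without WT replicate 2, 2 of the 5 passed. Of 17 other enzymes, carriers and tRNA ligases of serine, glycine and threonine, 2 rose, 3 fell and 12 did not pass. *Cbs*, which joins serine to homocysteine, rose from 16 and 23 to 115 and 120 counts (log2 fold change 2.55, adjusted p = 0.000749). *Srr*, the serine racemase gene, fell from 191 and 280 to 56 and 68 counts (log2 fold change -1.96, adjusted p = 0.000493). The amino acid carrier gene *Slc1a5* rose (0.78, adjusted p = 0.0165), and the carrier genes *Slc1a4* (-0.94, adjusted p = 0.0047) and *Slc6a9* (-1.24, adjusted p = 0.00738), of which the second encodes a glycine transporter, fell. None of these 3 carriers passed without *Zfp57*-/- replicate 1 (0.66, -0.93 and -1.30) or without *Zfp57*-/- replicate 2 (0.91, -0.93 and -1.16), and the list then held 2 calls, against 8 and 10 without WT replicates 1 and 2.

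In the methionine cycle, 2 of 13 genes rose, 2 fell and 9 did not pass. *Mtrr*, which reactivates methionine synthase, had a log2 fold change of 0.89 and *Ahcy*, the adenosylhomocysteinase gene, of 0.80 (edgeR adjusted p = 0.0141 and 0.0251). *Ahcyl1*, a relative of *Ahcy*, had -1.11 and *Gamt*, of creatine synthesis, -1.75 (adjusted p = 0.00256 and 0.0179). None of the 4 passed without *Zfp57*-/- replicate 1 (0.99, 0.87, -0.98 and -1.32), and *Mtrr* and *Ahcy* did not without *Zfp57*-/- replicate 2 (0.81 and 0.75), where *Gamt* was at -2.34. Without WT replicate 2, the list held 8 calls. The list of the amino acid response also holds the MYC factors *Myc* and *Mycn*. Of its 14 genes, 6 rose, 1 fell and 7 did not pass. *Eif4ebp1*, a brake on translation, rose from 63.27 ± 14.4 to 144.2 ± 20.8 CPM (SD, n = 2; log2 fold change 1.19, adjusted p = 0.00363), *Myc* with a log2 fold change of 1.41 (adjusted p = 0.00385) and the stress gene *Nupr1* with 1.83 (adjusted p = 0.00634). The value of *Nupr1* was 1.36 without WT replicate 1 and 2.53 without WT replicate 2, and it passed in both. *Chac1*, which degrades glutathione, fell at the edge of the threshold (-0.89, adjusted p = 0.0497), and did not pass without *Zfp57*-/- replicate 1 (-1.21) or 2 (-0.61) nor with DESeq2 (-0.90). This list held 12 calls without WT replicate 2 and 4 without *Zfp57*-/- replicate 2, and 0 when scaled to *Actb*.

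**Figure D3:**
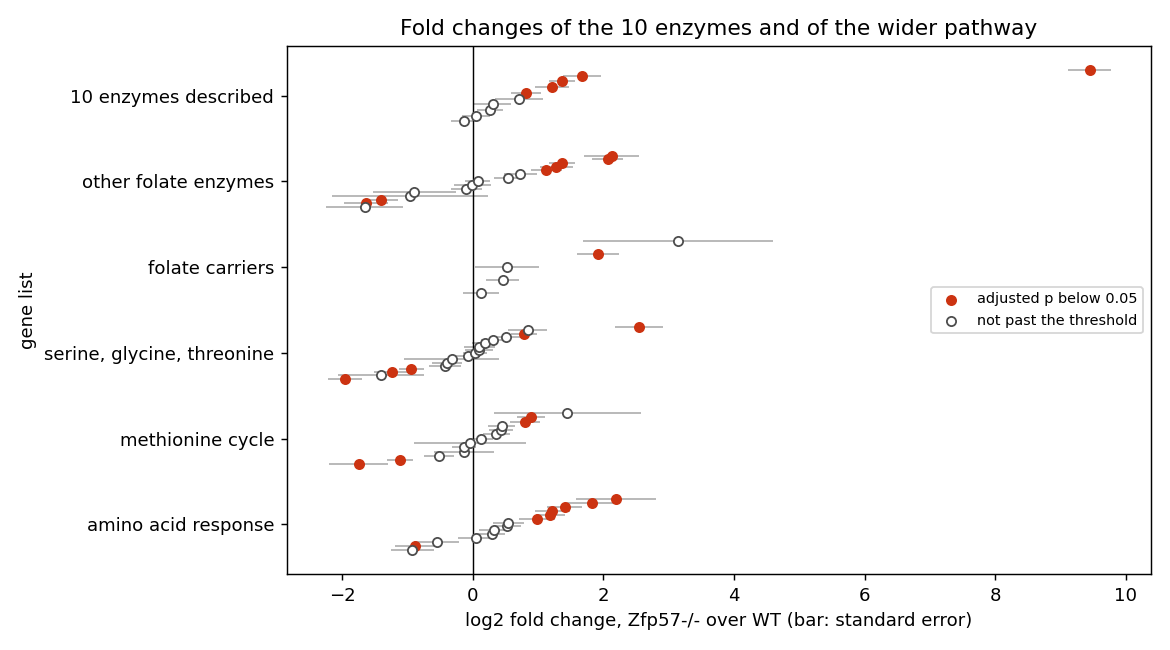
Log2 fold change of *Zfp57*-/- over WT cells (x axis) of each tested gene of the 10 enzymes and of the 5 lists (y axis). Bars are the SE derived from edgeR's F statistic. Red points passed an adjusted p of 0.05 and open points did not. *Tdh* stands alone at 9.45, the other genes past the threshold lie between -1.96 and 2.55, and the lists of other folate enzymes, of serine, glycine and threonine genes, of the methionine cycle and of the amino acid response hold points past the threshold on both sides; with *Actb* scaling the median of all genes moves to -0.68.

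Whether the enzymes were transcribed from both parental alleles was asked with the reads that cover a SNP between JF1 (maternal) and B6 (paternal). These shares were not used to choose the genes, so that they were tested. Of the 10 enzymes, 7 had the 10 allelic reads in each genotype that the test required. *Gcsh* and *Mthfd1l* had 0 allelic reads, and *Tdh* had 1 read in WT cells. In *Zfp57*-/- cells, *Tdh* was transcribed from both alleles, with 541 JF1 and 568 B6 reads in replicate 1 and 583 and 491 in replicate 2, shares of JF1 of 0.488 and 0.543. Over the 2183 reads the share was 0.515, with a 95% Wilson interval of 0.494 to 0.536, which covers counting error only. Neither allele thus had a clear excess. Over 10091 autosomal genes, the median share was 0.499 in WT and 0.489 in *Zfp57*-/- cells.

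The share of JF1 differed between the genotypes in 2 of the 7 enzymes tested, *Amt* and *Shmt2*, while 13.8% of all 11958 autosomal genes tested were called. *Amt* had 103 and 118 JF1 reads and 0 B6 reads in the WT libraries, where 0 of 221 reads allows a B6 share of up to 1.36%. In the *Zfp57*-/- libraries it had 109 and 97 JF1 reads and 127 and 106 B6 reads, with JF1 shares of 0.462 and 0.478. The WT libraries were thus wholly on JF1 and the *Zfp57*-/- libraries near parity (edgeR adjusted p = 8.97e-27 for the genotype-by-allele contrast). On the CPM scale, JF1 reads of *Amt* were 12.8 and 11.3 in the WT and 11.7 and 9.91 in the *Zfp57*-/- libraries, whereas B6 reads went from 0 to 13.6 and 10.8. The JF1 reads overlapped between the genotypes, and the B6 reads did not. The 15 nearest genes with allelic reads, over 508.6 kb, all had a JF1 share of 1 in WT cells and a median of 0.498, from 0.305 to 0.59, in *Zfp57*-/- cells. The absence of B6 reads was therefore not particular to *Amt* in this stretch of chromosome 9. The median share of chromosome 9 was 0.517 in WT and 0.484 in *Zfp57*-/- cells.

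*Shmt2* had JF1 shares of 0.508 and 0.53 in the WT and of 0.608 and 0.576 in the *Zfp57*-/- libraries, on 1590 and 1702 reads. The groups did not overlap, and edgeR gave an adjusted p = 0.021. The contrast, the log2 ratio of JF1 to B6 reads in *Zfp57*-/- minus that in WT cells, was 0.42. With DESeq2 it was as large (0.42) but did not pass (adjusted p = 0.51). Nor did it pass without WT replicate 1 (contrast 0.36, adjusted p = 0.2), WT replicate 2 (0.49, adjusted p = 0.0721) or *Zfp57*-/- replicate 1 (0.32, adjusted p = 0.197), and over all alternatives the adjusted p ran from 0.00808 to 0.51. Its 15 nearest genes had median shares of 0.512 and 0.487. The other 5 enzymes tested did not pass. Their mean shares were 0.421 ± 0.0233 and 0.502 ± 0.0616 for *Gcat*, 0.516 ± 0.0429 and 0.484 ± 0.00314 for *Gldc*, and 0.495 ± 0.00693 and 0.519 ± 0.0197 for *Shmt1*, in WT and *Zfp57*-/- cells (SD, n = 2). *Mthfd2* had 0.528 ± 0.157 and 0.521 ± 0.0117, with WT libraries at 0.417 and 0.639 on 182 reads, so that the difference between the genotypes was smaller than the spread between the WT libraries.

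Within a genotype, JF1 and B6 reads differed in 2 enzymes in WT cells, *Amt* and *Phgdh*, and in 2 in *Zfp57*-/- cells, *Shmt2* and *Phgdh*, against 22.5% and 21.4% of all genes tested. *Phgdh* was biased to B6 in every library, with JF1 shares of 0.337 and 0.31 in the WT and 0.323 and 0.367 in the *Zfp57*-/- libraries (edgeR adjusted p = 1.48e-14 and 7e-11). These shares rest on 1067 and 962 reads, and they did not differ between the genotypes at the threshold (adjusted p = 0.732). The 15 nearest genes had median shares of 0.504 and 0.502, with single genes from 0.371 to 0.679 in WT cells. Whether the copies of *Phgdh* elsewhere in the genome had a part in its share was not tested.

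**Figure D4:**
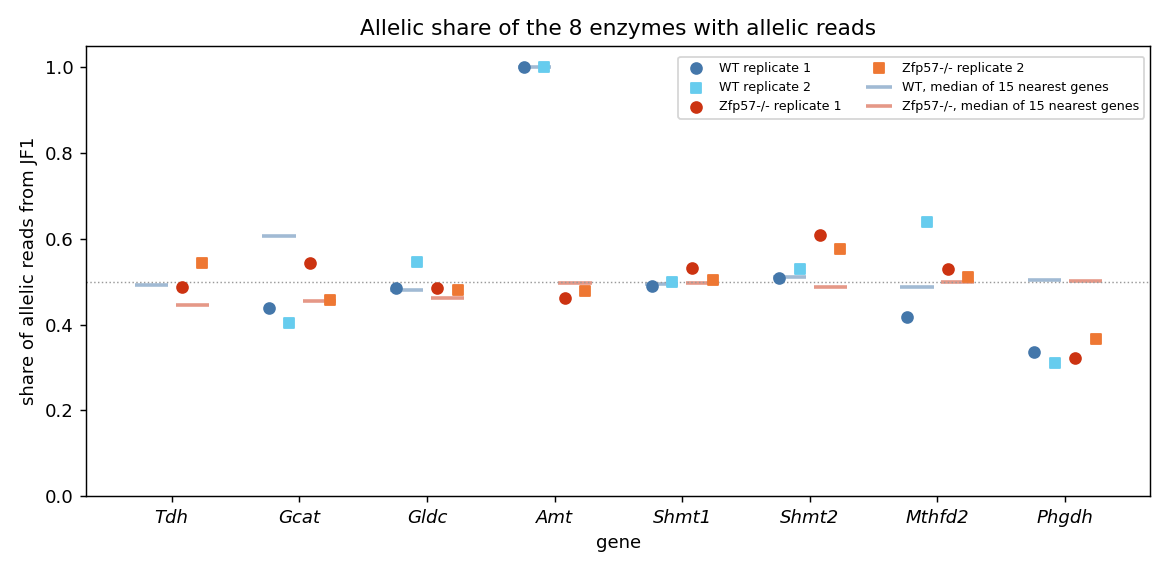
Share of allelic reads from JF1 (y axis, from 0 to 1) of the 8 enzymes with allelic reads (x axis); points are libraries with at least 10 allelic reads, and short lines are the medians of the 15 nearest genes in each genotype. Both WT points of *Amt* and the line of its neighbours are at 1, the 4 points of *Phgdh* lie between 0.31 and 0.367 below the lines of its neighbours, and most others are near 0.5.

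In the 5 lists, the JF1 share differed between the genotypes in 10 of 53 genes tested, again beside 13.8% of all genes. Of these 10 genes, 5 were folate enzymes, 2 folate carriers and 3 from the list of the amino acid response and MYC factors. The following genes are named for their values. *Gart*, which encodes a purine synthesis enzyme that uses formyl folate, had 1001 JF1 reads of 1002 in WT cells and shares of 0.47 and 0.465 in the *Zfp57*-/- libraries (edgeR adjusted p = 2.27e-62), and its 15 nearest genes had medians of 1 and 0.459. In bulk it had 514 and 1069 counts in the WT and 1784 and 1676 in the *Zfp57*-/- libraries (log2 fold change 1.13, adjusted p = 0.00744). Its JF1 reads were 52.2 ± 18.7 CPM in WT and 53.4 ± 4.21 CPM in *Zfp57*-/- cells, and its B6 reads 0.0477 ± 0.0675 and 60.8 ± 3.88 (SD, n = 2). *Folr1* had 55 JF1 reads of 55 in WT cells and shares of 0.6 and 0.734 in the *Zfp57*-/- libraries (edgeR adjusted p = 1.12e-06). The 15 nearest genes of *Folr1* had medians of 1 and 0.501. In WT cells their shares ran from 0.499 to 1, whereas the lowest near *Gart* was 0.996. Unlike in *Amt* and *Gart*, its JF1 reads too were higher in both *Zfp57*-/- libraries, at 3.05 ± 0.939 and 9 ± 0.429 CPM.

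*Atf4*, the transcription factor of the amino acid response, had JF1 shares of 0.829 and 0.793 in the WT and 0.459 and 0.42 in the *Zfp57*-/- libraries (edgeR adjusted p = 2.55e-32), with neighbours at 0.599 and 0.496. *Ggh*, the folate hydrolase gene, had 0.902 and 0.911 against 0.564 and 0.623 (adjusted p = 3.31e-11), while the medians of its neighbours were 0.501 and 0.446.

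**Figure D5:**
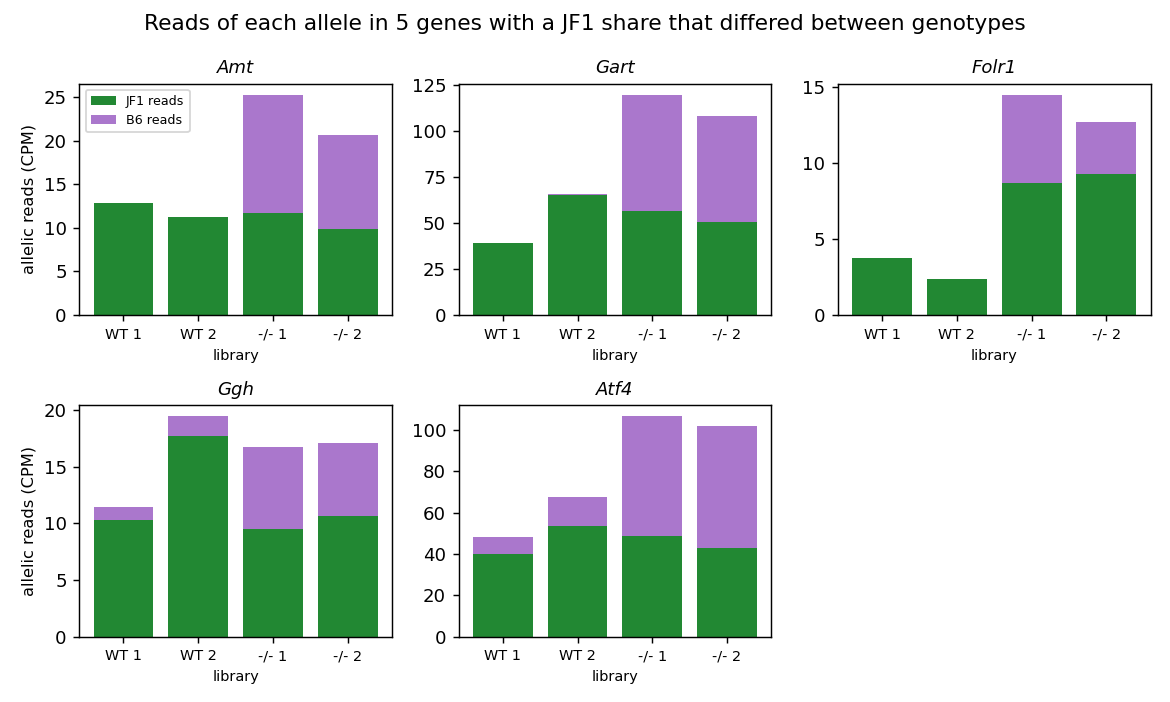
Allelic reads as CPM of the TMM-scaled library (y axis, from 0) in each library (x axis) for *Amt* and for 4 genes of the wider lists; green, JF1 reads; purple, B6 reads. In *Amt*, *Gart* and *Folr1* the WT bars are green only, but for 1 B6 read of *Gart*, and in all 5 genes the B6 part is larger in both *Zfp57*-/- libraries.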

How the data were processed

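For 2 wild-type (WT) and 2 *Zfp57*-/- libraries, the authors used Trimmomatic (0.36) for trimming and STAR (2.5.4a) for alignment to GRCm38, keeping unique alignments with up to 3 mismatches, and deposited raw fragment counts per gene from featureCounts (Subread 1.6.0, strand-specific). For the allele-specific counts, they deposited fragments assigned to JF1 or B6 with SNPsplit after alignment to a genome masked at the strains' SNPs. Here, genes with more than 8 counts over the 4 libraries (19995) were fitted with edgeR (4.0.16, R 4.3.3; TMM, robust quasi-likelihood test, Benjamini-Hochberg adjustment, two-sided, threshold 0.05), without a replicate term. The allele test was fitted to the 8 allele columns of 11958 autosomal genes with at least 10 allelic reads per genotype, in a model with library terms and 1 allele effect for each genotype. The chromosome X was left out, as the cells are male. The members and lists were chosen with earlier results of these data known, and the motifs likewise. Named from the lists were up to 3 genes higher and 3 lower with the smallest adjusted p, besides the enzymes, *Zfp57*, *Actb*, 6 markers, the nearest profiles and genes that share reads with an enzyme. *Dld* and *Psat1*, and *Gart*, *Atf4* and *Ggh* in the allelic results, were chosen after their values were seen, and 1 gene of the lists is not reported here. Copies were searched with BLAST+ (2.17.0) among annotated transcripts. Depth was 7663520 to 10337082 counts per library, and n = 2 limits the precision of every mean. CPM and RPKM were computed here from the deposited counts. The scripts were tested on simulated data. Alternatives were DESeq2 (1.42.0), other scalings and filters, a replicate block, and leaving out each library.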

Additional observations from a re-analysis of the deposited data

Results flagged for a closer look

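The share of allelic reads from JF1 was compared between WT and *Zfp57*-/- cells by edgeR's genotype-by-allele contrast. It differed for 2 of the 7 enzymes tested and for 10 of the 53 genes tested in the wider lists, of which 9 are given here. Of all 11958 autosomal genes tested, 13.8% were called. *Amt* had mean shares of 1 in WT and 0.47 in *Zfp57*-/- cells (adjusted p = 8.97e-27), and it kept its call under all 7 alternatives, with an adjusted p of at most 2.89e-08. *Shmt2* had 0.519 and 0.592 (adjusted p = 0.021), a call that DESeq2 and 3 of the 4 fits with a library left out did not give, with contrasts from 0.32 to 0.49 in them. Among the folate enzymes, the shares were 0.561 and 0.423 for *Mthfd1* (adjusted p = 4e-06), 0.907 and 0.593 for *Ggh* (adjusted p = 3.31e-11) and 0.999 and 0.467 for *Gart* (adjusted p = 2.27e-62). *Atic* had 0.567 and 0.69 (adjusted p = 6.72e-06), and its 15 nearest genes on chromosome 1 had medians of 0.509 and 0.693. Among the folate carriers, *Folr1* had 1 and 0.667 (adjusted p = 1.12e-06) and *Slc25a32* 0.418 and 0.607 (adjusted p = 0.0199). In the list of the amino acid response and MYC factors, *Atf4* had 0.811 and 0.44 (adjusted p = 2.55e-32), *Asns* 0.561 and 0.486 (adjusted p = 0.0014) and *Mycn* 0.646 and 0.491 (adjusted p = 0.00201). With DESeq2, *Slc25a32*, *Asns* and *Mycn* did not pass, although their contrasts (log2 ratio of JF1 to B6 reads, *Zfp57*-/- minus WT) were 1.12, -0.44 and -0.92, beside 1.13, -0.44 and -0.91 with edgeR. *Slc25a32* also did not pass without either WT replicate (1.18 and 1.06) or *Zfp57*-/- replicate 2 (0.61), *Asns* without WT replicate 2 (-0.39), and *Mycn* without WT replicate 2 (-0.94) or *Zfp57*-/- replicate 1 (-0.65). Each of these shares is the mean of 2 libraries, and the causes of the differences were not tested.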

How the results depend on the processing

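With 2 libraries per genotype, every count depended on single libraries. Leaving out each library gave 4 to 7 of the 10 enzymes, 2831 to 9947 of all genes, 5 to 10 folate enzymes, 1 to 2 folate carriers, 2 to 10 serine, glycine and threonine genes, 0 to 8 methionine cycle genes, 4 to 12 amino acid response genes and 1 to 2 enzymes in the allelic contrast. With *Actb* scaling, the counts were 1, 3480 (486 higher and 2994 lower), 3, 0, 3, 2 and 0 in the same order, and DESeq2 on the allele columns gave 1. At an adjusted p of 0.01, 2901 of all genes, 1 methionine cycle gene and 4 amino acid response genes passed. With *Actb* scaling, the sign turned for *Shmt2* (-0.56), *Mthfd2* (-0.23), *Mthfd1l* (-0.45) and *Psat1* (-0.47), as the median of all genes moved to -0.68; relative to it they were 0.12, 0.45, 0.23 and 0.21. The sign also turned without WT replicate 1 for *Shmt2* (-0.20), *Mthfd2* (-0.10) and *Psat1* (-0.22). Without WT replicate 2 it turned for *Phgdh* (0.046), *Dld* (0.044) and the allelic contrast of *Mthfd2* (0.60), and the share difference of *Atic* became -0.00676 when centred on its chromosome. Without each library in turn, the values ranged from -0.20 to 0.31 for *Shmt2*, -0.10 to 0.82 for *Mthfd2*, -0.32 to 0.046 for *Phgdh* and -0.22 to 0.47 for *Psat1*, and from -0.71 to 0.60 for the allelic contrast of *Mthfd2*. The causes were not tested. Replicate numbers were not treated as pairs (same-number correlation 0.173 over 11869 genes, 2 pairs). A replicate block changed the call of *Gata4* and of no other named gene, and gave 5 enzymes, 6984 of all genes, 10 folate enzymes and 2 enzymes in the allelic contrast. Of 473 fold changes recomputed for named and listed genes, 410 kept direction and side of the threshold, as did 105 of 119 allelic contrasts.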
